A study of Mus musculus with 2 samples.

Results

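MicroRNAs can be made from the introns of protein-coding genes, and 5 hairpin genes of this kind, inside genes of coenzyme A, cholesterol and mitochondrial metabolism, are described here in the newborn mouse forebrain. Members were chosen by gene name from a fixed set of host genes, not by their level. These are Mir103-1 in Pank3, Mir103-2 in Pank2, Mir107 in Pank1, Mir33 in Srebf2, and Gm25301 in Ppargc1b. Gm25301 was included to stand for Mir378a on its opposite strand. The members are 5 of the 1973 microRNA genes counted, and each had reads in both samples. Small RNA was sequenced from whole forebrains of mice of strain B6NCrl at postnatal day 0, with no treatment or altered allele named in the labels. Both samples belong to 1 group: 2 biological replicates, taken from pup 1 and from pup 3. Sex was not recorded, both pups carry the same donor record, and litter is not given in the sources used here, so the spread between pups covers these 2 samples only. With 1 group there is no comparison of conditions, and the levels are given as a description.

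The hosts of these hairpins sit at known control points of metabolism. Pantothenate kinases, encoded by the Pank genes, catalyse the rate-limiting step of coenzyme A synthesis, and Srebf2 encodes SREBP2, the transcription factor that switches on cholesterol synthesis and uptake. Ppargc1b encodes PGC-1β, a coactivator of mitochondrial and fatty acid oxidation genes. MicroRNAs of the miR-103 and miR-107 family are known to act on insulin sensitivity through caveolin-1 and to repress Dicer, miR-33 represses the cholesterol exporter ABCA1 together with its host's sterol programme, and miR-378 is known from mitochondrial and lipid metabolism in muscle, fat and liver. In the brain, where cholesterol is made locally, ABCA1 loads lipid onto apolipoprotein E.

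The mature sequences show which of these hairpins can be told apart by a read. They come from RefSeq on GRCm38.p6, which matched 4 of the 5 members by symbol, and are written from the 5′ end with the seed, bases 2 to 8, in capitals. The 3′ arm of the Pank hairpins is the arm that carries the family's name.
miR-103-3p of Mir103-1 (chr11:35782447-35782469, plus strand): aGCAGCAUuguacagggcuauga
miR-103-3p of Mir103-2 (chr2:131288103-131288125, plus strand): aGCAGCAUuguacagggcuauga
miR-107-3p of Mir107 (chr19:34820700-34820722, minus strand): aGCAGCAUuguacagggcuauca
miR-103-1-5p of Mir103-1: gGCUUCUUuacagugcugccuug
miR-103-2-5p of Mir103-2: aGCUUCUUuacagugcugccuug
miR-107-5p of Mir107: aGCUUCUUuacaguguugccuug
miR-33-5p of Mir33 (chr15:82198127-82198147, plus strand): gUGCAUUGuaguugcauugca
miR-33-3p of Mir33 (chr15:82198167-82198188, plus strand): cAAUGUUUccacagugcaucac

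The 3 Pank hairpins share the seed GCAGCAU on the 3′ arm and the seed GCUUCUU on the 5′ arm, and no other of the 1738 mature sequences searched had either seed. Mir33 was alone with each of its seeds, UGCAUUG and AAUGUUU. Counted from 1 at the 5′ end, miR-103-3p is the same 23 bases at Mir103-1 and Mir103-2, and it differs from miR-107-3p only by G22C, so the first 21 bases are common to all 3 hairpins. On the 5′ arm, Mir103-1 differs from Mir103-2 by G1A, and Mir103-2 differs from Mir107 by C16U. A read that covers only the 3′ arm of either Mir103 hairpin therefore has no letter that places it at a single hairpin.

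The whole hairpins are shown because they hold the letters that do differ between the copies, with both mature arms in capitals.
Mir103-1 (chr11:35782396-35782481, plus strand): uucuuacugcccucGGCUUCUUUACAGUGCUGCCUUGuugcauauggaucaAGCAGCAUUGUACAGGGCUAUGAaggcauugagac
Mir103-2 (chr2:131288052-131288137, plus strand): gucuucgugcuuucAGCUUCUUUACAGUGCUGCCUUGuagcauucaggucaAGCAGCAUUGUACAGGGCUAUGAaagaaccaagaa
Mir107 (chr19:34820687-34820773, minus strand): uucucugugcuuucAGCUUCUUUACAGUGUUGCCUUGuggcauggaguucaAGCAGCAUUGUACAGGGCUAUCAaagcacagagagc
Mir33 (chr15:82198122-82198190, plus strand): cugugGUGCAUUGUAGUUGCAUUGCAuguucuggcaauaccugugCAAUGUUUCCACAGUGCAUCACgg
Aligned over their length, Mir103-1 and Mir103-2 were 80.2% identical with a longest shared stretch of 27 bases. Mir107 was 80.5% identical to Mir103-1 and 83.9% to Mir103-2, each with a shared stretch of 24 bases. Mir33 shared no more than 12 bases with any of 2200 other annotated hairpins, on either strand. Gm25301 shared 20 bases with Mir378c and 19 with Mir378b.

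All 5 hairpins lie in introns of their hosts and overlap no annotated host exon (GENCODE M21, GRCm38). In each of the Pank genes the hairpin sits in intron 5 of a transcript with 7 exons. Mir103-1 (ENSMUSG00000065553.1) starts 688 bases after the exon before it in Pank3, Mir103-2 (ENSMUSG00000065563.1) 454 bases after it in Pank2, and Mir107 (ENSMUSG00000065594.1) 326 bases after it in Pank1. Mir33 (ENSMUSG00000065465.1) lies in intron 16 of a Srebf2 transcript with 19 exons, 335 bases after the exon before it. These 4 lie on the strand of their host. Gm25301 (ENSMUSG00000093026.1) is annotated on chromosome 18, plus strand, spanning 61397813 to 61397925, in intron 1 of Ppargc1b, whose gene is on the minus strand. The annotation places Mir378a inside this interval, from 61397835 to 61397900 on the minus strand, the strand of Ppargc1b. Host messenger RNA was not measured in these small RNA libraries.

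The libraries held 22470992 reads in pup 1 and 18798326 in pup 3, of which 9037087 and 7678662 were assigned to a microRNA gene. A level is given as counts per 1000000 assigned reads (CPM), with both arms of a hairpin pooled. A further 43.0% of all reads in pup 1 (95% Wilson interval 43.03 to 43.07) and 43.5% in pup 3 (43.45 to 43.49) mapped to several places and count for no gene. Of all 1973 genes, 433 (21.9%) were detected, with at least 10 counts in each pup. The neural marker hairpins, 7 of 8 of them detected, summed to 32380 CPM in pup 1 and 44042 CPM in pup 3. Mir137 led this sum of counted reads. Counts at Mir124a-1, Mir124a-2, Mir124a-3 and Mir9-2 were 45, 20, 20 and 12 in pup 1. In pup 3 these copies had 113, 6, 20 and 12 counts. Mir9-3 had 3449 counts in pup 1 and 5252 in pup 3. Liver markers summed to 225 and 265.8 CPM, and erythroid markers to 240.0 and 379 CPM. Striated muscle markers summed to 176.4 and 84.4 CPM, with Mir1a-1, Mir133a-1 and Mir133a-2 at 0. How many reads of numbered copies, such as those of Mir124a, Mir9 and Mir133a, are in the tally of several places was not tested. Low values at such copies therefore do not show a low level of their microRNA. The lead of Mir137 does not place miR-137 above miR-124 or miR-9. Fewer cells of a type and less RNA per cell cannot be told apart in whole tissue.

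Among the Pank hairpins nearly all counted reads belonged to Mir107, which encodes miR-107 of the insulin-sensitivity family. Mir107 had 20050 counts in pup 1 and 15588 in pup 3, or 2219 CPM (95% Wilson interval 2188 to 2249) and 2030.0 CPM (1998 to 2062). The pups lay close together, with a mean of 2124 ± 133 CPM (SD, n = 2), rank 81 of the 1973 genes. It took 98.8% of the reads counted at the Pank hairpins in pup 1 (98.6 to 98.9) and 97.2% in pup 3 (97.0 to 97.5).

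Mir103-1 and Mir103-2, which encode the same miR-103, had few counts. Mir103-2 had 216 counts in pup 1 and 375 in pup 3, or 23.9 CPM (20.9 to 27.3) and 48.8 CPM (44.1 to 54.0). For Mir103-1 there were 27 counts in pup 1 and 66 in pup 3, or 2.99 CPM (2.05 to 4.35) and 8.60 CPM (6.76 to 10.9). Both stood higher in pup 3, and their values did not overlap each other in either pup. Their means were 36.4 ± 17.6 CPM and 5.79 ± 3.97 CPM (each SD, n = 2), ranks 269 and 339.

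The copies of miR-103 kept the same order in both libraries. Mir103-2 had 8 times the counts of Mir103-1 in pup 1 (95% exact binomial interval 5.35 to 12.4) and 5.68 times in pup 3 (4.36 to 7.50), and these intervals overlap. Mir107 had 92.8 times the counts of Mir103-2 in pup 1 (81.2 to 106.6) and 41.6 times in pup 3 (37.5 to 46.2), where the intervals do not overlap. All such intervals cover counting error only, and repeated reads of a molecule were not marked by any identifier the labels name. Since reads mapping to several places are in no gene's count and the 3′ arm is the same at both Mir103 hairpins, the counts of these hairpins are uncertain and do not give the level of miR-103. How many reads of miR-103-3p, or of miR-107-3p reads ending before base 22, are in that tally was not tested.

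Mir33, the partner of SREBP2 in cholesterol balance, was present at a moderate level. It had 2948 counts in pup 1 and 1472 in pup 3, or 326 CPM (314.7 to 338) and 191.7 CPM (182 to 202), so pup 1 was the higher. The mean was 259 ± 95.1 CPM (SD, n = 2), rank 176. Having no long stretch in common with another annotated hairpin, Mir33 does not share the placement limit of the miR-103 copies among these hairpins.

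Gm25301, the row that stands for Mir378a, had a level whose spread between pups took in that of Mir107. It had 21638 counts in pup 1 and 12398 in pup 3, or 2394 CPM (2363 to 2426) and 1615 CPM (1587 to 1643). Pup 1 was again the higher, and the mean was 2004 ± 551 CPM (SD, n = 2), rank 83. In pup 1 Gm25301 had 1.08 times the counts of Mir107 (95% exact binomial interval 1.06 to 1.10), and in pup 3 it had 0.795 times (0.777 to 0.814), so the pups gave opposite orders.

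Every read at Gm25301 lay on the strand opposite to that gene, which is the strand of Mir378a and Ppargc1b. In pup 1 this was 21638 of 21638 reads and in pup 3 12398 of 12398, so reads on the plus strand could make up at most 0.0139% and 0.0242% by the limit of 3 counts. Mir103-1, Mir103-2, Mir107 and Mir33 had 0 reads on the opposite strand in both pups, which allows at most 11.1% and 4.55% for Mir103-1 and at most 0.0150% and 0.0192% for Mir107. Gm25301 was chosen to stand for Mir378a on its opposite strand, so its share is not independent of that choice. Of the 433 detected genes, 13 had most reads on the opposite strand (3.00%) and 8 had every read there (1.85%). Gm25301 was the fifth of these 13 by level and held 8.89% of all opposite-strand reads in pup 1 and 8.45% in pup 3. Of 33 detected hairpins annotated opposite to a coding gene that spans them, Gm25301 and Gm25927 had every read on the strand of that gene.

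**Figure D1:**
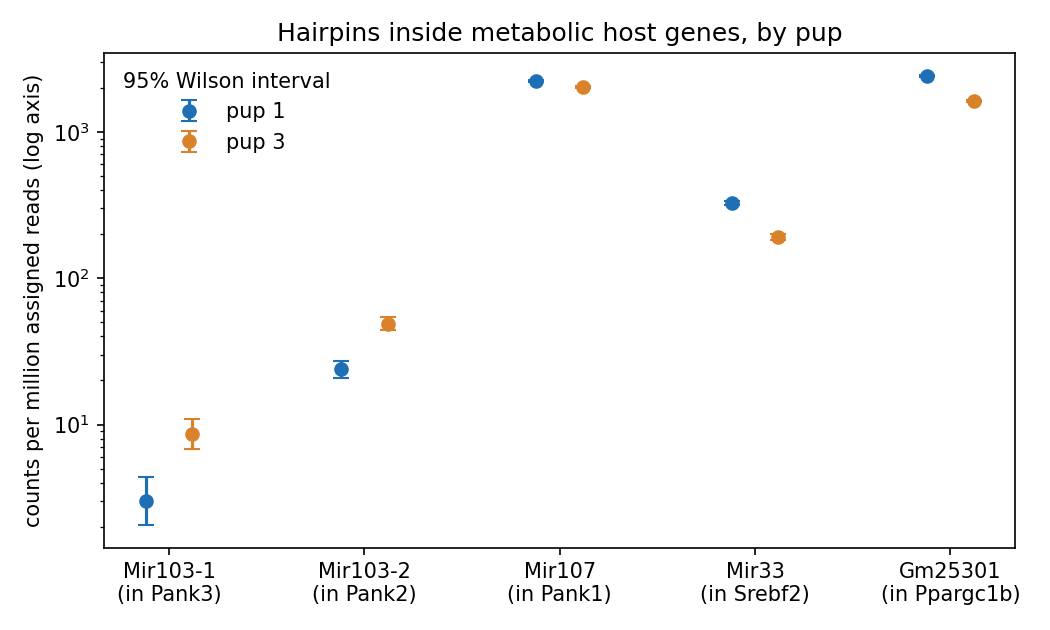
CPM (log axis) of the 5 hairpins in pup 1 and pup 3, with 95% Wilson intervals that cover counting error only. Mir107 and Gm25301 lie between 1615 and 2394 CPM, Mir33 at 191.7 and 326 CPM, and Mir103-2 and Mir103-1 at 48.8 CPM or less.

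The order of the mean CPM was Mir107, Gm25301, Mir33, Mir103-2 and Mir103-1. Mir107 and Gm25301 did not differ beyond the spread between pups, while every later step in counted reads held in both pups without overlap. A small RNA read spans a mature arm and not the hairpin, and the annotated hairpins range from 69 to 113 bases. Per 100 bases of hairpin the same order was found, at 2442 ± 153 CPM for Mir107, 1774 ± 488 for Gm25301, 375 ± 138 for Mir33, 42.3 ± 20.5 for Mir103-2 and 6.73 ± 4.61 for Mir103-1 (each SD, n = 2). On that scale the fold of Mir107 over Gm25301 was 1.38, against 1.06 in CPM. The 5 hairpins together took 0.497% of pup 1's assigned reads and 0.389% of pup 3's.

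Within the wider set of hairpins on the strand of a protein-coding host, the 4 sense members covered much of the range. That set held 854 hairpins, of which 217 (25.4%, beside 21.9% of all 1973 genes) were detected, with a median of 54.2 CPM. Mir107 was number 39 of the 217 and Mir33 number 76, both above that median. Mir103-2 was number 114 and Mir103-1 number 151, below it, by counts that do not give the level of miR-103.

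**Figure D2:**
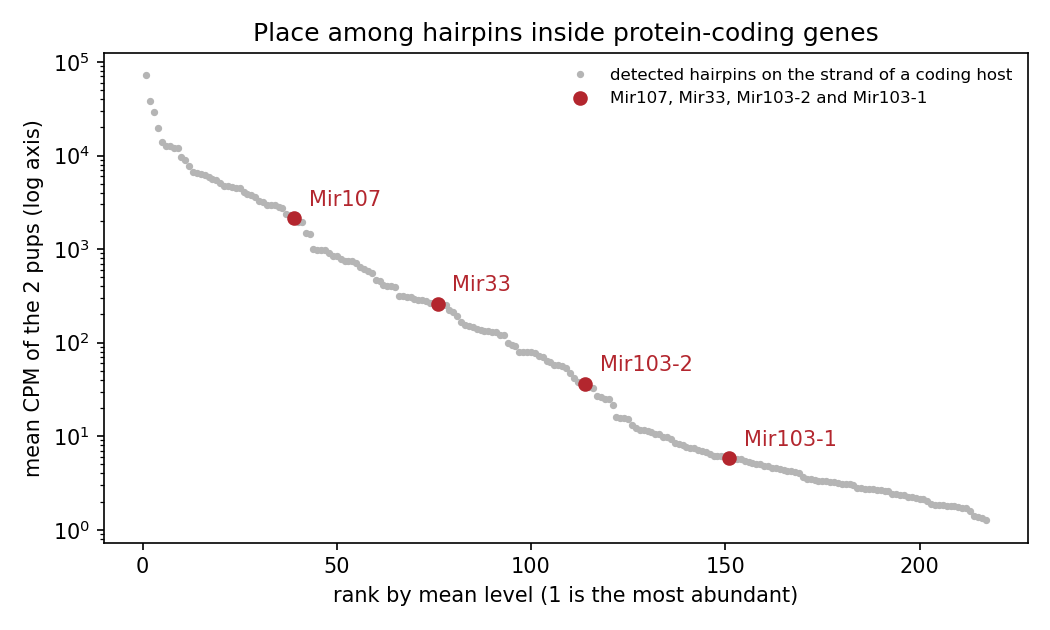
Mean CPM over both pups (log axis) against rank for the 217 detected hairpins that lie inside a protein-coding gene on its strand. Mir107, Mir33, Mir103-2 and Mir103-1, marked in red, take ranks 39, 76, 114 and 151.

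Between the pups, the miR-103 hairpins had the widest ratios of the 5 and Mir107 the narrowest. Each ratio sets pup 3 over pup 1 after adding 0.5 to the counts and scaling with TMM (edgeR); it compares single libraries and has no replicate check. Of the 310 genes whose mean reached 10 CPM, 54 were at least 1.5-fold higher in pup 3 (17.4%) and 48 at least 1.5-fold lower (15.5%). Among the 4 members that reach 10 CPM, 1 was at least 1.5-fold higher, namely Mir103-2, and 0 were lower, so the count is near that background. Mir103-1 has a mean below 10 CPM and is not among the 310.

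The log2 ratio was 1.23 for Mir103-2 (0.99 to 1.48, a 95% exact interval from the binomial), or 2.34-fold, and 19 of the 310 genes differed at least as much in either direction. Mir103-1 stood at a log2 ratio of 1.71 (1.06 to 2.43), or 3.27-fold, from few counts. The miR-103 hairpins thus lay on the same side. Mir107 had a log2 ratio of 0.07 (0.04 to 0.10), and 277 of the 310 genes differed at least as much. Scaled by total counts the value for Mir107 turned to -0.13, as the median over the 310 genes went from -0.03 to -0.23 with that scaling. Relative to that median Mir107 stood at 0.10 under both scalings.

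Mir33 and Gm25301 had ratios below 0 and inside 1.5-fold under TMM scaling. Mir33 had a log2 ratio of -0.57 (-0.66 to -0.48), a fold of 0.675, and 105 of the 310 genes differed at least as much. Under total counts it was 0.588, past the 1.5-fold line. Gm25301 had a log2 ratio of -0.37 (-0.40 to -0.34), a fold of 0.775, and 150 of the 310 genes differed at least as much. Relative to the median gene, Mir33 stood at -0.53 and Gm25301 at -0.34 under both scalings. In the same libraries 3 of 4 neural markers with a mean of at least 10 CPM were at least 1.5-fold higher in pup 3 (Mir137, Mir128-1 and Mir9-3; 1 of 4 by total counts). Both muscle markers at that level, Mir206 and Mir208b, were at least 1.5-fold lower under either scaling. Of all 310 genes, 17.4% were higher and 15.5% lower by that fold, or 12.3% and 23.5% by total counts. The part of tissue composition in the members' ratios was not tested.

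**Figure D3:**
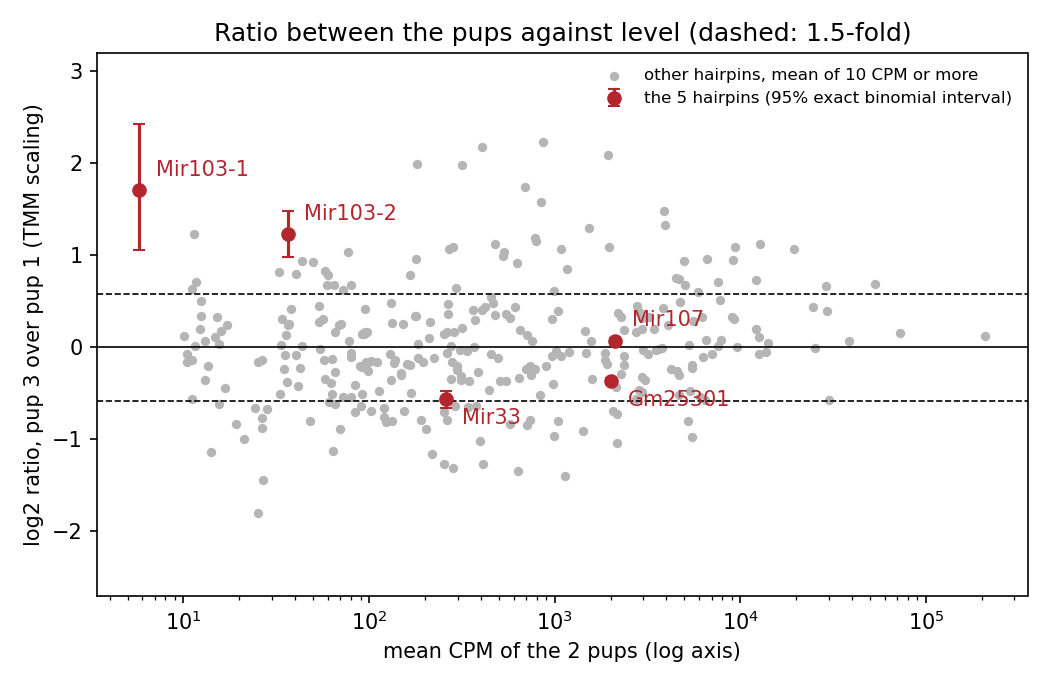
Log2 ratio of pup 3 over pup 1 (TMM scaling) against mean CPM (log axis) for the 310 genes, in grey, and the 5 hairpins, in red with 95% exact binomial intervals. Dashed lines mark 1.5-fold: Mir103-1 and Mir103-2 lie above the upper line, and Mir107 at 0.07, Gm25301 at -0.37 and Mir33 at -0.57 lie between the lines.

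The genes most like each member were taken as the nearest in log2 CPM over both pups, by Euclidean distance among 428 other detected genes, which with 2 samples describes level and ratio only. For Mir107 these were Mir18 (distance 0.23) and Mir541 (0.23), and for Gm25301 Mir1983 (0.12) and Mir132 (0.15). Mir383 (0.12) and Mir540 (0.16) were nearest to Mir33. Mir224 (0.32) and Mir7j (0.43) were nearest to Mir103-2, and Mir1b (0.36) and Mir5101 (0.55) to Mir103-1.

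MicroRNAs of the miR-15/16 family carry the core of the miR-103 and miR-107 seed shifted by 1 base, and they are known as brakes on the cell cycle. The leading relatives are shown with their seed in capitals, AGCAGCA against GCAGCAU in miR-103 and miR-107.
miR-15a-5p (chr14:61632075-61632096, minus strand): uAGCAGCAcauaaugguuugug
miR-322-5p (chrX:53054306-53054327, minus strand): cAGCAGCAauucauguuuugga
miR-16-5p of Mir16-1 (chr14:61631936-61631957, minus strand): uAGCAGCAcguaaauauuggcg
Of 9 measured hairpins listed as relatives, 8 were detected, beside 21.9% of all 1973 genes. Together the 9 summed to 22482 CPM in pup 1 and 29890 CPM in pup 3. In the RefSeq sequences 7 of them carry the core GCAGCA at bases 3 to 8, and these 7 summed to 21085 and 28706 CPM. The others are Mir503, which has a different last seed base, and Mir497b, whose own mature sequence lacks the core. Nearly all reads at Mir497b lay on its opposite strand, however. The listed Mir497 carries the core but was not measured under that symbol. Whether the reads at Mir497b, 1303 and 1094 CPM, carry the core was not tested, and they are outside the sum of the 7. The Pank hairpins summed to 2246 CPM (2215 to 2277) in pup 1 and 2088 CPM (2055 to 2120.0) in pup 3. By the mean of the pups Mir15a led, at 6593 and 12220 CPM, followed by Mir322 at 8084 and 7121 CPM. In pup 1 Mir322 was the higher. The relatives were thus counted at many more reads than the Pank hairpins in each pup, with reads at several places in neither sum.

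Among the 8 relatives that reach a mean of 10 CPM, 3 were at least 1.5-fold higher in pup 3 (Mir15a, Mir16-1 and Mir16-2) and 0 were lower, under both scalings. Their median log2 ratio was 0.11, and -0.09 under total counts, beside medians of -0.03 and -0.23 over the 310 genes. Of those 310, 17.4% were at least 1.5-fold higher and 15.5% lower under TMM scaling, and 12.3% and 23.5% under total counts. Mir16-1 and Mir16-2 encode the same mature miR-16, as the miR-103 hairpins do for miR-103, so their counts are uncertain too. At Mir497b, 20173 reads over both pups lay on the opposite strand and 2 on its own.

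The miR-378 relatives were rare beside Gm25301. Mir378d had 5.42 CPM in pup 1 and 4.30 CPM in pup 3, Mir378c had 3.54 and 1.30 CPM, and Mir378b had 1 count in each pup. None of these 3 reached a mean of 10 CPM, whereas Gm25301 held 1615 CPM or more in each pup. Shared stretches of 20 and 19 bases between Gm25301 and Mir378c and Mir378b make the counts of these rows uncertain.

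Beside 433 of 1973 genes detected (21.9%), microRNAs known from cholesterol and lipoprotein control, other than miR-33, were detected at 14 of 14. They summed to 10617 CPM in pup 1 and 14008 CPM in pup 3, led by Mir128-1 (5919 ± 1152 CPM) and Mir128-2 (2774 ± 333 CPM, each SD, n = 2). These brain-enriched hairpins share mature miR-128, which also represses the LDL receptor and ABCA1. Reads of miR-128 that mapped to several places are in neither count, and how many there are was not tested. The same holds for the Mir30c copies of the list, so its sum is uncertain. Mir33 was above Mir148a, which acts on the LDL receptor in liver, in pup 1 (326 against 242 CPM) and below it in pup 3 (191.7 against 293 CPM). Under TMM scaling 5 of the 14 were at least 1.5-fold higher in pup 3 and 1 lower, beside 17.4% and 15.5% of the 310 genes. The median log2 ratio of the 14 was 0.46. Total-count scaling gave 3 higher, 2 lower and a median of 0.26. Over the 310 genes that scaling gave 12.3% higher, 23.5% lower and a median of -0.23, against a median of -0.03 under TMM scaling. The higher ones were Mir128-1, Mir122 and the clustered Mir96, Mir182 and Mir183, the last 3 with log2 ratios of 1.98, 2.23 and 1.13. In the same libraries Mir200a, Mir200b, Mir141, Mir200c and Mir429, epithelial hairpins of the miR-200 family, had 2.18, 2.09, 1.99, 1.75 and 1.48. Mir203 and Mir205, also known from epithelia, had only 0.07 and 0.24. All of these were named after their values were seen. The part of epithelial cells in the ratios of this list was not tested. The liver-specific Mir122, a regulator of hepatic cholesterol, stood at 54.0 and 75.0 CPM.

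Against 21.9% of all 1973 genes, hairpins known from glucose and insulin control were detected in 6 of 7 cases matched by symbol. They summed to 6898 CPM in pup 1 and 6040 CPM in pup 3, led by Mir143 (5317 ± 446 CPM), which impairs insulin signalling in liver, and Mir29a (496 ± 77.3 CPM; each SD, n = 2), which lowers insulin response. Mir107 thus lay below Mir143 and above Mir29a in both pups. How many reads of the listed copies Mir29b-1 and Mir29b-2 mapped to several places was not tested. The listed Mir7a-1 and Mir7a-2 matched no symbol. Rows named Mir7-1 (mean 615 CPM, inside Hnrnpk) and Mir7-2 (443 CPM) are outside these sums, and Mir7-1 stood above Mir29a. Of the 4 matched hairpins that reach a mean of 10 CPM, 0 passed 1.5-fold in either direction. Of the 310 genes, 17.4% were higher and 15.5% lower by that fold under TMM scaling. The median log2 ratio of the 4 was -0.06, and -0.26 under total counts. These lie near the medians of -0.03 and -0.23 over the 310 genes.

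By summed CPM, the brown fat and mitochondria list was the lowest of these lists apart from the miR-378 relatives. Of its 9 hairpins, 4 were detected, beside 21.9% of all 1973 genes, and Mir133a-1, Mir133a-2 and Mir365-1 had 0 counts. Mir133a and Mir365 are listed as numbered copies. How many of their reads mapped to several places, and so count for no gene, was not tested. The sums were 744 CPM in pup 1 and 467 CPM in pup 3, led by Mir210 (276 ± 72.7 CPM), the hypoxia-induced microRNA that acts on mitochondrial iron-sulphur assembly, and Mir455 (190.4 ± 89.1 CPM; each SD, n = 2), known from brown fat differentiation. At a mean of at least 10 CPM there were 4, of which 2 were at least 1.5-fold lower in pup 3 (Mir455 and Mir193b) and 0 higher, under both scalings, with a median log2 ratio of -0.52, and of -0.72 under total counts. Over the 310 genes, 17.4% were at least 1.5-fold higher in pup 3 and 15.5% lower under TMM scaling, with a median of -0.03. Under total counts these were 12.3%, 23.5% and -0.23. Gm25301, with a log2 ratio of -0.37, exceeded the counted sum of this list in each pup.

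**Figure D4:**
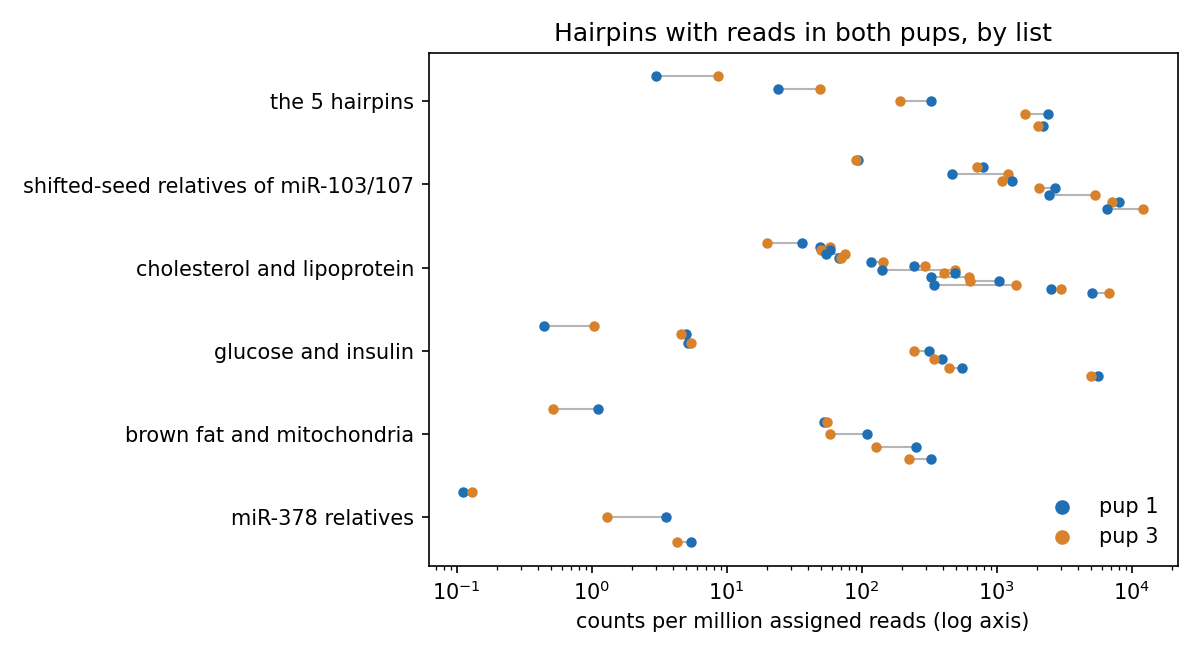
CPM (log axis) of each hairpin with reads in both pups, by list, with pup 1 in blue and pup 3 in orange joined by a line. Mir107 and Gm25301, the rightmost of the 5 hairpins, lie below Mir15a and Mir128-1 and above every hairpin of the brown fat and mitochondria list.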

How the data were processed

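Small RNA libraries of 2 newborn forebrains were used. The authors deposited whole-number counts per microRNA gene on assembly mm10 with annotation M4, per the notes beside each table. Neither the aligner nor the counting tool is given in the sources used here. Every table has 3 unnamed count columns, and the first, which equals the sum of the others (read as sense and opposite strand), was used. The 4 tallies that name no gene stayed out of library sizes. Of 1973 identifiers, 1894 matched GENCODE M21 (GRCm38). CPM used reads assigned to genes. Ratios used counts plus 0.5 and TMM factors of edgeR 4.0.16 (1.07 and 0.933), and DESeq2 1.42.0 factors as an alternative; both ran in R 4.3.3. Intervals were Wilson or exact binomial (95%), from scipy 1.17.1. The ratio was tested on simulated data. No contrast was tested because there is only 1 group. Named were the members, the 2 most abundant symbol-matched hairpins of each list and the 2 genes nearest to each member. Any other gene was picked with its values in view. Members and lists were chosen with earlier results of these data known. Sequences came from RefSeq; hairpins were aligned with biopython 1.88.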

Additional observations from a re-analysis of the deposited data

How the results depend on the processing

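Of 82 values recomputed under an alternative, 62 moved by less than the spread between pups, the counting interval or 1.5 times. Many of these could not move further. Leaving out 1 of 2 pups always shifts a mean by less than their SD. The sense column alone cannot change a member with 0 opposite-strand reads. The tally is therefore not a measure of robustness. Per 1000000 of all library reads, levels were 861 for Mir107, 811 for Gm25301, 104.7 for Mir33, 14.8 for Mir103-2 and 878 for the Pank sum. With the sense column alone Gm25301 fell to 0, and with the opposite column alone Mir103-1, Mir103-2, Mir107 and Mir33 fell to 0. Scaled by total counts, log2 ratios were -0.13 for Mir107, -0.57 for Gm25301 and -0.77 for Mir33, and 73 rather than 48 hairpins were at least 1.5-fold lower, with 38 rather than 54 higher. Without a filter beyond 1 count, 178 were higher and 206 lower of 775, and at a mean of at least 100 CPM 39 were higher and 31 lower of 214. Of mapped reads, 50.6% in pup 1 and 50.8% in pup 3 were at several places. No paired analysis was possible because there is a single group. The fold of Mir107 over Gm25301 was 1.06 in CPM and 1.38 per 100 hairpin bases, a scale chosen after seeing the data. Depth limits Mir103-1 most.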
